A study of Glycine max with 44 samples.

Results

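Untreated soybean roots were compared between 12 h and 48 h of a hydroponic time course, with no aluminium in either group. The comparison takes the 6 arrays of untreated roots at 12 h minus the 6 arrays of untreated roots at 48 h, with genotype as a factor, and so uses 12 of the 44 arrays of the series. The 12 h groups are PI 416937 and Young, each untreated, with 3 arrays each, and the 48 h groups are the same genotypes, also untreated, with 3 arrays each. The labels call PI 416937 aluminium tolerant. Plants of all 4 groups grew at 0 µM Al in a growth chamber with 16 h of light at 28 °C and 8 h of dark at 20 °C, and total RNA came from the last 1 cm of the tap root. The other arrays of the series are roots given 10 µM Al and untreated roots of 2 h and 72 h. The labels give neither plant age nor the clock time of sampling, and the interval of 12 h to 48 h is not a whole number of days, so hours in the chamber, plant age and time of day cannot be told apart. The labels do not say whether replicates are separate cultures. The p-values therefore speak of the spread between these arrays, and precision is limited by having 3 arrays per group.

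The root tip holds the meristem, the elongating cells behind it and the root cap, and it lives on sugar and nitrogen compounds that arrive from the shoot and the seed. Many plant transcripts follow the light and dark cycle through the circadian clock, in which LHY-type factors and LUX are central parts, and others follow the age of the organ or its supply of carbon and nitrogen. Untreated series of this kind are the baseline against which a treatment is read, and the comparison asks which transcripts differ along that baseline.

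All levels are given as log2(intensity + 16) of the deposited intensities, and each difference is 12 h minus 48 h on that scale, so that 1 unit is close to 2-fold for bright genes and understates the fold of dim ones. Probe sets for the oomycete Phytophthora and the nematode Heterodera, which should find little target in these roots, set the background at 4.41. A soybean probe set was tested where a group mean exceeded that level, and 34097 of 37593 did. Calls are probe sets that limma put under an adjusted p of 0.05. Only 8239 of the tested probe sets have a single annotated gene (5800 genes), and 25497 have none, so most of the calls cannot be given a gene name. Arrays correlated at 0.933 to 0.986, and their medians over tested probe sets lay within 0.134 log2 units of each other.

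The first principal component of the 12 arrays, with 27.7% of the variance, separated the times. The 12 h arrays had coordinates of 2.21 to 74.21 and the 48 h arrays of -72.26 to -7.94. The arrays numbered 3 had the lowest coordinate in each of the 4 groups, and at 48 h they stood apart at -68.92 in PI 416937 and -72.26 in Young. What these numbers stand for is not given in the labels.

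**Figure D1:**
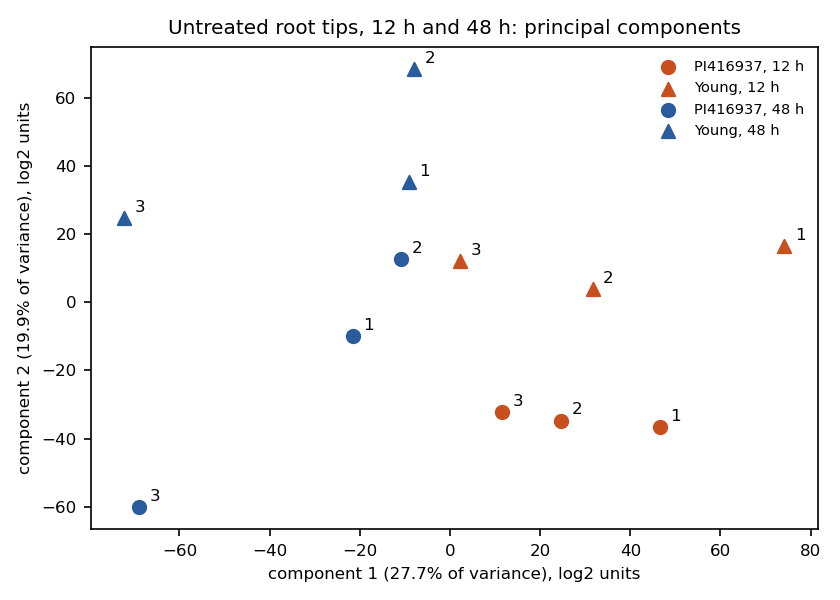
Principal components of the tested probe sets in the 12 untreated arrays, with component 1 on the horizontal and component 2 on the vertical axis, in log2 units. Colour gives the time, the symbol gives the genotype and the digit is the replicate number. All 12 h arrays lie to the right of all 48 h arrays, and the 48 h arrays numbered 3 lie at the far left.

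Averaged over both genotypes, 1025 of 34097 probe sets were called (3.01%). Of these, 447 were higher at 12 h (1.31%) and 578 were lower (1.7%). The higher calls were the larger in size: 217 of the 279 calls of at least 2-fold were higher at 12 h and 62 were lower. The calls with a single annotated gene were 315 probe sets in 272 genes, or 3.82% of the tested probe sets of that kind, the share to set beside the counts of the gene lists. At an unadjusted p under 0.05 there were 6888 probe sets. The 12 h and 48 h arrays were fully separate in 666 of the 1025 calls, and in 1129 of all tested probe sets (3.31%). The count rests on single arrays: it was 247 without Young 48 h replicate 3, 258 without PI 416937 48 h replicate 1, 312 without PI 416937 12 h replicate 1, 366 without Young 12 h replicate 2, 521 without Young 12 h replicate 1, 609 without PI 416937 48 h replicate 3 and 680 without Young 48 h replicate 1. With both 48 h arrays numbered 3 left out, an alternative chosen after seeing the data, it was 111.

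Asparagine synthetase AS2, which makes the nitrogen transport compound asparagine, was among the genes highest at 12 h relative to 48 h. At 12 h it read 12.39, 11.98 and 11.36 in PI 416937 and 12.31, 12.56 and 11.71 in Young. At 48 h it read 9.68, 11.12 and 9.94 in PI 416937 and 10.26, 10.66 and 8.20 in Young. Every 12 h array was above every 48 h array, and the widest spread was among the 48 h arrays. The difference was 2.08 ± 0.44 (SE), or 4.21-fold in intensity + 16, with adjusted p = 0.0391, and the other AS2 probe set was also called, at 2.54. The 2 AS2 probe sets gave 2 of the 3 calls among 30 tested probe sets for nitrogen, asparagine and ureide metabolism (10%, against 3.82% of all annotated probe sets). The third call was lower: urease (LOC547672, also named URE), which releases ammonia from urea, had 10.20 to 10.64 at 12 h and 10.80 to 11.27 at 48 h, without overlap. Its level at 12 h was lower by 0.66 ± 0.09 (SE, adjusted p = 0.012), and the list median was -0.03 against -0.01 over all tested probe sets.

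SGR1 and SGR2, the stay-green genes that start chlorophyll breakdown, were also higher at 12 h, although the tissue is a root. SGR1 read 7.80, 7.18 and 6.89 in PI 416937 and 8.64, 7.20 and 6.17 in Young at 12 h, and 5.95, 5.91 and 5.65 in PI 416937 and 5.37, 5.61 and 4.68 in Young at 48 h. The times did not overlap, with Young 12 h replicate 3 closest to the 48 h range. SGR1 was higher at 12 h by 1.78 ± 0.38 (SE, adjusted p = 0.0396) and SGR2 by 1.81 ± 0.38 (SE, adjusted p = 0.0394). Coproporphyrinogen oxidase CPX, an enzyme of haem and chlorophyll synthesis, went the other way. It had 9.98 to 11.28 at 12 h and 10.63 to 12.31 at 48 h and was lower at 12 h by 0.97 ± 0.20 (SE, adjusted p = 0.0355), with overlapping arrays. Photosynthesis genes as a list, used to mark light-exposed tissue, had 0 calls in 17 probe sets by limma. With 3.82% called among all annotated probe sets, a list of this size can hold 0 calls. Differences in the list ran from -1.52 to 1.34, and 10 of the 17 were positive. The mean level of the list was 5.97 to 8.74 at 12 h and 6.16 to 7.81 at 48 h (two-sided exact permutation p = 0.805, adjusted p = 0.983 over 10 array checks).

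Lipoxygenases oxidise polyunsaturated fatty acids and in 1 branch feed jasmonate synthesis. They gave 3 of the 5 calls in the jasmonate and lipoxygenase list, all 5 of them higher at 12 h. The list had 47 tested probe sets, so 10.6% were called, against 3.82% of all annotated probe sets. LOX7 read 12.70, 13.33 and 13.39 in PI 416937 and 12.47, 11.50 and 11.34 in Young at 12 h. At 48 h it read 11.80, 11.19 and 11.48 in PI 416937 and 9.83, 9.79 and 8.74 in Young. Within each genotype the times did not overlap, while the lower level in Young brought its 12 h replicates 2 and 3 into the range of PI 416937 at 48 h. LOX7 was higher at 12 h by 1.99 ± 0.26 (SE, adjusted p = 0.0114), in 2 of 4 probe sets, and all 4 had the same sign.

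LOX9 had 11.69, 11.99 and 12.04 in PI 416937 and 10.96, 11.20 and 8.55 in Young at 12 h, and 11.14, 9.42 and 11.15 in PI 416937 and 7.55, 6.55 and 5.31 in Young at 48 h. Young 12 h replicate 3 was far below the other 12 h arrays but above every Young array of 48 h. The difference was 2.55 ± 0.55 (SE, adjusted p = 0.0424), called in 1 of 5 probe sets, with differences of 1.33 in PI 416937 and 3.77 in Young. The other 2 calls were of JAZ1 (LOC100778559), a repressor of jasmonate responses, with 6.51 to 7.10 at 12 h and 5.77 to 6.25 at 48 h and a difference of 0.78 ± 0.14 (SE, adjusted p = 0.0242). The median of the list was 0.29, and 38 of its 47 probe sets had a positive difference.

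**Figure D2:**
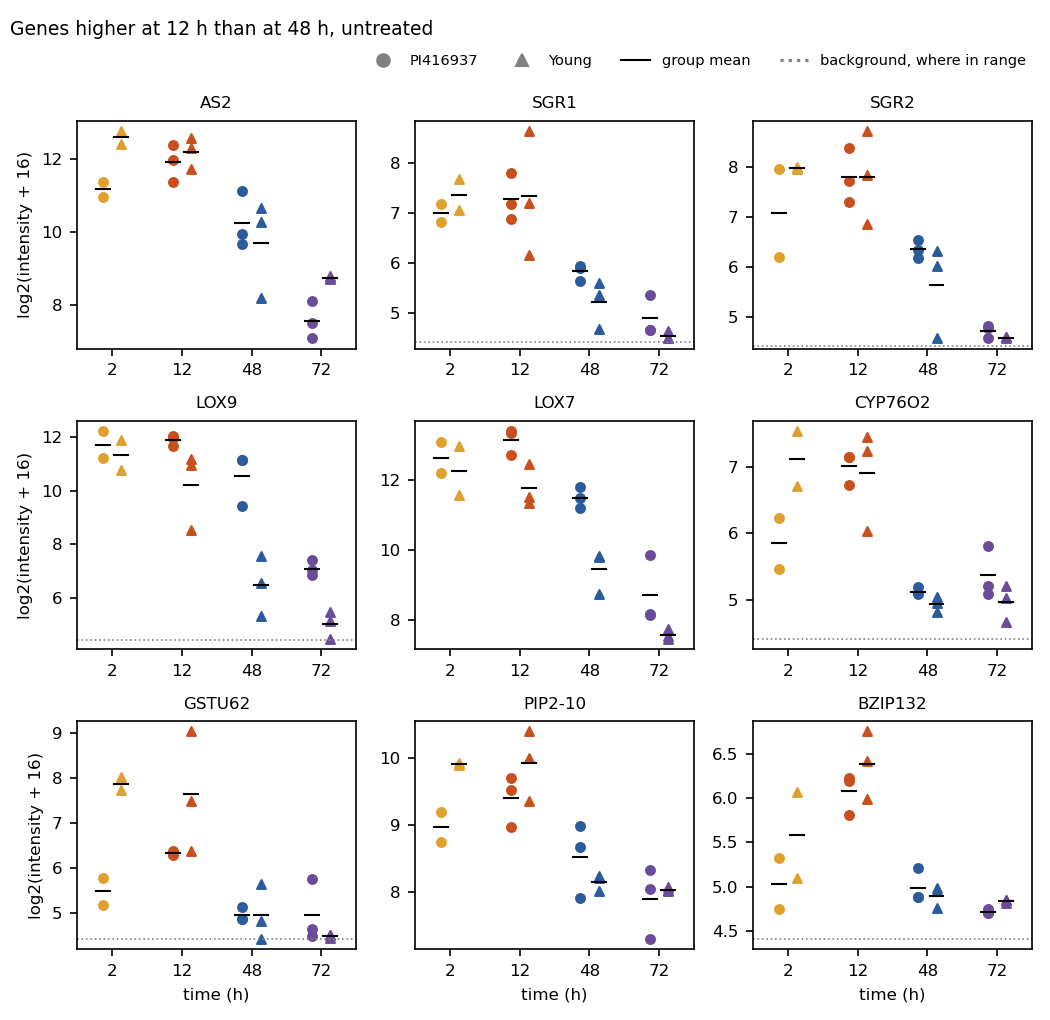
Levels of 9 named genes that were higher at 12 h, as log2(intensity + 16) on the vertical axes, in untreated roots at 2, 12, 48 and 72 h, with a separate range for each gene. Each point is an array (circles PI416937, triangles Young), the short bars are group means, and the dotted line, where in range, is the background of 4.41. AS2 and LOX7 are bright at 2 h and 12 h and lower at 48 h and 72 h, whereas BZIP132 peaks at 12 h.

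Enzymes of detoxification moved in both directions. Among 57 probe sets of glutathione S-transferases, which attach glutathione to reactive compounds, 3 were higher and 2 were lower, which is 8.77% against 3.82% of all annotated probe sets, and the list median was 0.01. GSTU62 had 6.31, 6.38 and 6.29 in PI 416937 and 9.04, 7.49 and 6.39 in Young at 12 h, and 5.14, 4.87 and 4.87 in PI 416937 and 4.82, 5.65 and 4.43 in Young at 48 h. All 12 h arrays were above all 48 h arrays, 1 of which was next to background, so the difference of 2.02 ± 0.39 (SE, adjusted p = 0.0296) understates the fold. GSTU17 was higher at 12 h by 0.93 ± 0.18 (SE, adjusted p = 0.0284) in 1 probe set and by 1.01 ± 0.20 (SE, adjusted p = 0.0319) in the other. GSTU13, with 7.09 to 7.47 at 12 h and 7.84 to 8.38 at 48 h, was lower at 12 h by 0.71 ± 0.12 (SE, adjusted p = 0.022) in 1 of 4 probe sets. GSTa was lower at 12 h by 0.76 ± 0.14 (SE, adjusted p = 0.0262). The cytochrome P450 CYP76O2 had 6.03 to 7.46 at 12 h and 4.81 to 5.19 at 48 h. CYP76O2 was higher at 12 h by 1.93 ± 0.22 (SE, adjusted p = 0.00756), and its other probe set was called at 1.15. These were the only 2 calls among 49 tested P450 probe sets, or 4.08%, close to the 3.82% of all annotated probe sets. CYP83E8 had a larger difference of 3.09 ± 0.81 (SE) that missed the threshold (adjusted p = 0.0709); it is given here after its values were seen.

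Plasma membrane aquaporins, the water channels of the PIP2 group, made up the 3 calls among 38 aquaporin probe sets, and all 3 were higher. PIP2-9 was bright, with 13.40 to 14.42 at 12 h and 12.35 to 13.25 at 48 h, without overlap. Its difference was 1.002 ± 0.20 (SE, adjusted p = 0.0323). PIP2-10 had 8.96 to 10.39 at 12 h and 7.90 to 8.98 at 48 h and was higher at 12 h by 1.32 ± 0.23 (SE, adjusted p = 0.0233), the highest 48 h array touching the 12 h range. PIP2-8 was near background in Young at both times: it read 6.08, 6.25 and 5.57 in PI 416937 and 4.95, 4.93 and 4.93 in Young at 12 h, and 5.14, 4.93 and 4.95 in PI 416937 and 4.89, 4.90 and 4.85 in Young at 48 h. Its mean difference of 0.51 ± 0.10 (SE, adjusted p = 0.0327) was 0.96 in PI 416937 and 0.06 in Young, and limma gave the difference between the genotypes an adjusted p = 1. The other PIP2-8 probe set lay at background, with a difference of -0.03 ± 0.03 (SE, adjusted p = 0.6), and the PIP2-8 call was lost in 10 of the 12 fits that left out 1 array. With the replicate number within genotype as a block, none of these 3 aquaporins was called by limma. Over the list, 3 of 38 is 7.89%, against 3.82% of all annotated probe sets, 29 of 38 differences were positive and the median was 0.21.

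The blue-light receptors gave both calls in the list of flowering and light signalling, which had 10 tested probe sets and a median of 0.36. That is 20%, against 3.82% of all annotated probe sets. The cryptochrome CRY1c (LOC100786551) had 7.16, 7.21 and 6.53 in PI 416937 and 7.47, 6.63 and 6.25 in Young at 12 h, and 5.86, 6.09 and 4.85 in PI 416937 and 5.77, 5.08 and 5.11 in Young at 48 h. Without overlap between the times, it was higher at 12 h by 1.42 ± 0.28 (SE, adjusted p = 0.0329) in 1 of 2 probe sets. The cryptochrome CRY2B was higher at 12 h by 0.95 ± 0.16 (SE, adjusted p = 0.0193), with 4.95 to 6.44 at 12 h and 4.72 to 5.34 at 48 h.

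No clock gene passed the test, with 0 calls by limma in 8 probe sets, against 3.82% of all annotated probe sets. A list of this size can hold 0 calls at that share, so the 0 does not show that these genes were unchanged. The clock list held 8 probe sets of 5 genes, by symbol LHY, LCL3, MYB114 (also named LHY2b), LUXC and ZTL1. The nearest was LUXC, the evening complex factor LUX, with 10.50, 10.44 and 10.71 in PI 416937 and 10.90, 10.21 and 10.85 in Young at 12 h. At 48 h it read 11.81, 11.29 and 10.94 in PI 416937 and 11.05, 11.18 and 11.46 in Young. Every 12 h array lay below every 48 h array, and the difference was -0.69 ± 0.17 (SE, adjusted p = 0.0599). LUXC passed in 2 alternatives, at adjusted p = 0.0444 in a model with genotype and time as added terms and adjusted p = 0.0495 without PI 416937 48 h replicate 3. The morning factor LHY had differences of 0.13 ± 0.20 and 0.52 ± 0.34 (SE) in its 2 probe sets, and its arrays ran from 7.12 to 8.09 at 12 h and from 7.14 to 7.97 at 48 h in the first of them. ZTL1, a light-sensing partner of the clock, had differences of 0.26 ± 0.12 and 0.13 ± 0.15 (SE). LCL3 and MYB114 were close to background at both times, and so was the other LUXC probe set.

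Calls among regulators of transcription differed between families. MYB factors had 5 higher and 3 lower calls among 92 probe sets (8.70%), and bHLH and bZIP factors had 2 higher and 3 lower among 101 (4.95%), against 3.82% of all annotated probe sets. BZIP132 had 5.81, 6.23 and 6.19 in PI 416937 and 5.99, 6.75 and 6.42 in Young at 12 h, and 4.88, 4.88 and 5.21 in PI 416937 and 4.95, 4.99 and 4.76 in Young at 48 h. With no overlap and little spread, it was higher at 12 h by 1.29 ± 0.14 (SE, adjusted p = 0.0074). BZIP50 was lower, with 8.72 to 9.70 at 12 h and 9.93 to 10.75 at 48 h. Its level at 12 h was lower by 1.12 ± 0.18 (SE, adjusted p = 0.0183), and its other probe set was called at -0.98. BZIP121 was higher at 12 h by 0.54 and BZIP58 was lower by 0.68, but these calls were lost in 12 and 10 of the 12 fits without 1 array.

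Among the MYB factors, MYB173 was higher at 12 h by 1.55 ± 0.30 (SE, adjusted p = 0.0284), with 8.08 to 9.45 at 12 h and 5.83 to 7.68 at 48 h. MYB57 was higher at 12 h by 0.79 and MYB107 by 0.34. MYB92 was lower at 12 h by 0.93 ± 0.15 (SE, adjusted p = 0.0184) in 1 of 3 probe sets. WRKY32 gave the single call among 98 WRKY probe sets (1.02%, against 3.82% of all annotated probe sets). It had 7.84 to 8.45 at 12 h and 6.56 to 7.32 at 48 h, a difference of 1.17 ± 0.17 (SE, adjusted p = 0.0128) in 1 of its 3 probe sets. ERF5, of the ethylene response factor family, was the single call among 23 AP2/ERF and DREB probe sets (4.35%, near the same 3.82%). It was higher at 12 h by 0.96 ± 0.22 (SE, adjusted p = 0.0492). The 40 NAC probe sets had 0 calls by limma, although 35 of them had a positive difference and their median was 0.48. The largest evidence in that list was for NAC6, at 1.02 ± 0.39 (SE, adjusted p = 0.184), named after its values were seen.

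The regulator MYB29 and 2 isoflavonoid enzymes were among the lower calls. Soybean roots make isoflavonoids as signals and defence compounds, and MYB29 is a regulator of that pathway in soybean. MYB29 read 7.35, 7.81 and 7.49 in PI 416937 and 7.25, 7.31 and 7.58 in Young at 12 h, and 8.20, 8.45 and 8.12 in PI 416937 and 8.09, 8.52 and 8.64 in Young at 48 h. The times were separate in both genotypes, and MYB29 was lower at 12 h by 0.87 ± 0.14 (SE, adjusted p = 0.0171), with its other probe set called at -0.92. Chalcone reductase CHR5, which acts at the branch to deoxychalcones, had 13.33 to 14.16 at 12 h and 14.31 to 14.80 at 48 h. It was lower at 12 h by 0.83 ± 0.12 (SE, adjusted p = 0.0124). Isoflavone synthase IFS1 was lower at 12 h by 0.35 ± 0.08 (SE, adjusted p = 0.0491), with overlapping arrays. The third call among the 73 phenylpropanoid and isoflavonoid probe sets (4.11%, against 3.82% of all annotated ones) was 4CL1, a coumarate CoA ligase at the entry of the pathway. It was higher at 12 h by 1.17 ± 0.26 (SE, adjusted p = 0.0451) in 1 of 2 probe sets. The calls of IFS1 and 4CL1 were each lost in 10 of the 12 fits without 1 array and with the replicate block. The list median was -0.02, and 30 of the 73 differences were positive.

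Carbon and lipid enzymes gave further lower calls. Sucrose synthase (SS, also named N-100) cleaves sucrose where it enters sink tissue. It read 11.92, 11.24 and 11.74 in PI 416937 and 11.05, 11.72 and 11.66 in Young at 12 h, and 13.14, 12.49 and 13.08 in PI 416937 and 12.37, 12.67 and 12.42 in Young at 48 h. The times did not overlap, the level at 12 h was lower by 1.14 ± 0.17 (SE, adjusted p = 0.0149), and all 3 of its probe sets were called. SS came through the rule for the largest differences and is not a member of the sugar and starch list, which had 0 calls by limma in 22 probe sets and a median of 0.14. The oleate desaturases FAD2-2 and FAD2-3, which make linoleate, gave the 3 calls among 28 glyoxylate cycle and fatty acid probe sets, all lower at 12 h. That is 10.7%, against 3.82% of all annotated probe sets. FAD2-3 had 12.17 to 12.85 at 12 h and 12.72 to 13.73 at 48 h and was lower at 12 h by 0.75 ± 0.16 (SE, adjusted p = 0.0426). FAD2-2 was lower at 12 h by 0.63 ± 0.12 (SE, adjusted p = 0.0259) in the first probe set and by 0.56 ± 0.11 (SE, adjusted p = 0.0287) in the other. Arrays of the times overlapped for FAD2-3 and for the first FAD2-2 probe set.

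Phosphoenolpyruvate carboxylase, which makes oxaloacetate for organic acids, had 1 call in each direction among 13 probe sets for organic acids and Al tolerance. That is 15.4%, against 3.82% of all annotated probe sets, and the list median was -0.19. PEPC17 was higher at 12 h by 0.88 ± 0.15 (SE, adjusted p = 0.02) and PEPC16 was lower by 0.44 ± 0.07 (SE, adjusted p = 0.0192). The cysteine synthase OAS-TL1 had 10.12 to 10.91 at 12 h and 10.94 to 11.60 at 48 h. It was lower at 12 h by 0.71 ± 0.09 (SE, adjusted p = 0.011) in 1 of 2 probe sets. PAP3, a purple acid phosphatase, was the single call among 24 phosphate, sulphate and metal transport probe sets (4.17%, near the 3.82% of all annotated probe sets). It was lower at 12 h by 0.34 ± 0.07 (SE, adjusted p = 0.0417) in 1 of 2 probe sets. A ubiquitin gene (LOC100791065, SUBI-1) was the single call among 16 proteolysis and ubiquitin probe sets (6.25%, against 3.82% of all annotated probe sets). It was higher at 12 h by 0.47 ± 0.10 (SE, adjusted p = 0.036) in 1 of its 6 probe sets, 5 of which had a positive difference.

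**Figure D3:**
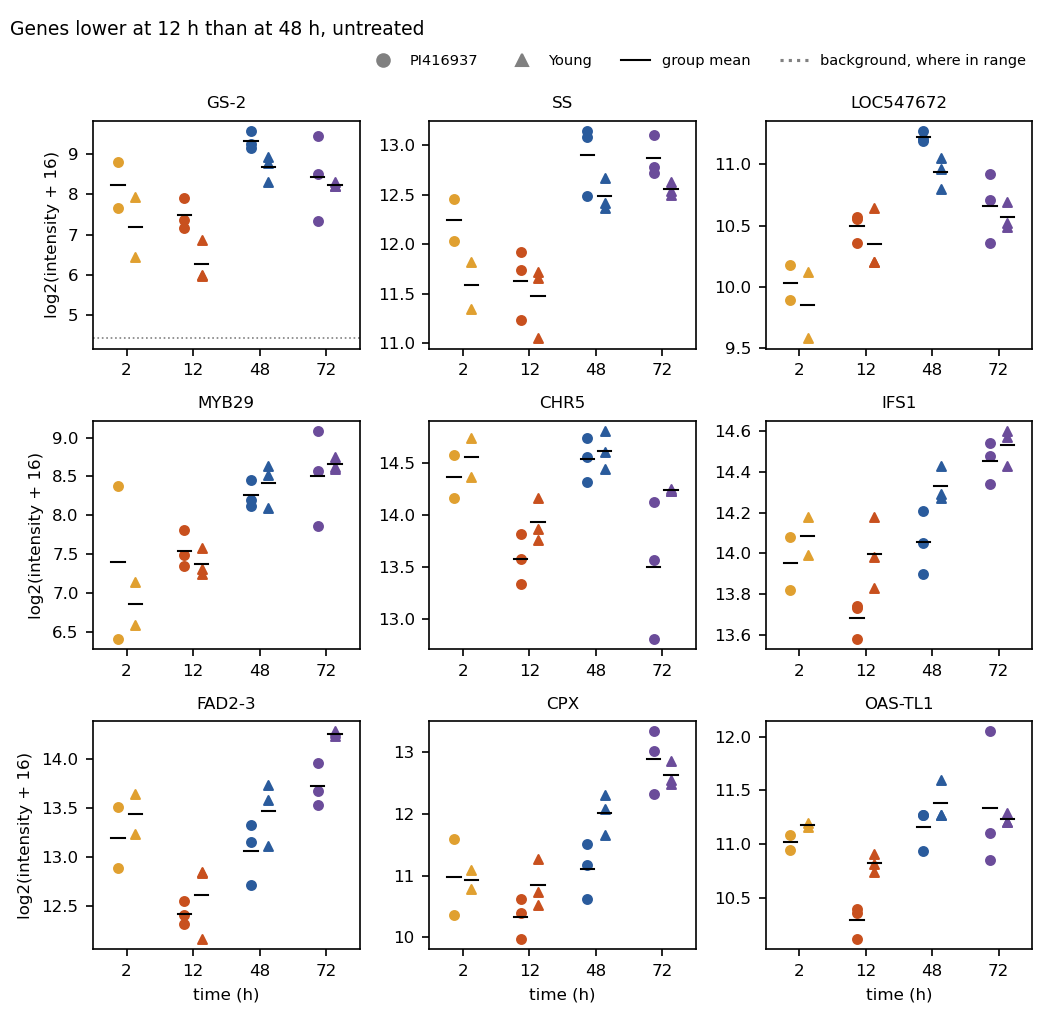
Levels of 9 named genes that were lower at 12 h, as log2(intensity + 16) on the vertical axes, in untreated roots at 2, 12, 48 and 72 h, with a separate range for each gene and symbols as for the genes that were higher (LOC547672 is urease). SS and MYB29 lie lower at 12 h than at 48 h in every array. CPX is highest at 72 h, and CHR5 is high at 2 h and low at 12 h.

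Some of the largest differences belonged to genes whose product the annotation tables do not describe. LOC100527907, also named SCCW, read 12.39, 10.82 and 11.74 in PI 416937 and 9.84, 11.70 and 12.15 in Young at 12 h. At 48 h it read 6.59, 9.74 and 6.11 in PI 416937 and 8.44, 8.25 and 7.62 in Young. The times did not overlap, but PI 416937 48 h replicate 2 came next to the lowest 12 h array, in Young. The difference was 3.65 ± 0.65 (SE, adjusted p = 0.0244), or 12.5-fold in intensity + 16, in 1 of 2 probe sets. LOC100527270 was higher at 12 h by 3.04 ± 0.58 and LOC100527308 by 2.86 ± 0.46 (SE, adjusted p = 0.0284 and 0.0171). The same array, PI 416937 48 h replicate 2, was the highest of the 48 h arrays for all 3 genes.

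The gene named GH was higher at 12 h by 2.10 ± 0.31 (SE, adjusted p = 0.014), with 10.78 to 12.33 at 12 h and 8.56 to 9.83 at 48 h. LRK1, a receptor-like kinase by its symbol, was higher at 12 h by 1.37 ± 0.25 (SE, adjusted p = 0.0244). ACS1 was called higher at 12 h in all 3 of its probe sets, the only calls among 5 in the ethylene list. That is 60%, against 3.82% of all annotated probe sets, but from a single gene. The ACS1 probe set with the smallest p had a difference of 0.72 ± 0.09 (SE, adjusted p = 0.011). It was dim, with 5.42 to 5.87 at 12 h and 4.60 to 5.21 at 48 h. Of the probe sets without an annotated gene, the largest positive differences were 3.13 ± 0.63 and 3.12 ± 0.60 (SE, adjusted p = 0.0343 and 0.0299).

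On the lower side, GS-2 read 7.90, 7.17 and 7.36 in PI 416937 and 5.99, 6.87 and 5.97 in Young at 12 h. At 48 h it read 9.15, 9.25 and 9.57 in PI 416937 and 8.92, 8.31 and 8.78 in Young. Each 12 h array was below each 48 h array, and GS-2 fell by 2.12 ± 0.21 (SE, adjusted p = 0.0067). LOC100306300 was lower at 12 h by 2.20 ± 0.29 (SE, adjusted p = 0.0114), with 8.22 to 10.22 at 12 h and 10.38 to 11.72 at 48 h. LOC100305726 was lower at 12 h by 1.98 and LOC100792416 by 1.62, both with overlapping arrays, and GBP was lower by 0.68. Of the probe sets without an annotated gene, the 2 lowest at 12 h relative to 48 h were lower by 2.31 ± 0.29 and 2.21 ± 0.19 (SE, adjusted p = 0.0102 and 0.00583).

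Across 35 gene lists, 33 had a tested probe set, 16 had at least 1 call and 17 had none. By limma, the lists for cell cycle and DNA replication (6 probe sets), ribosomal proteins (10), tubulin and actin (4), heat shock and chaperones (34), peroxidases and antioxidants (24), abscisic acid and drought (36), auxin (9), cytokinin and gibberellin (30) and pathogenesis-related proteins (14) had 0 calls. Cell wall growth also had 0 calls in 14 probe sets, with 10 positive differences and a median of 0.45. With 3.82% called among all annotated probe sets, lists of these sizes can hold 0 calls without falling short of that share. The 0 therefore does not show that these genes were unchanged, here or in the other lists without a call. The lists for root tip identity and for vascular cells matched no probe set by symbol, so the labelled tissue could not be checked with them. Seed reserve genes lay at 4.42 to 4.50 at 12 h and 4.43 to 4.45 at 48 h, next to background.

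**Figure D4:**
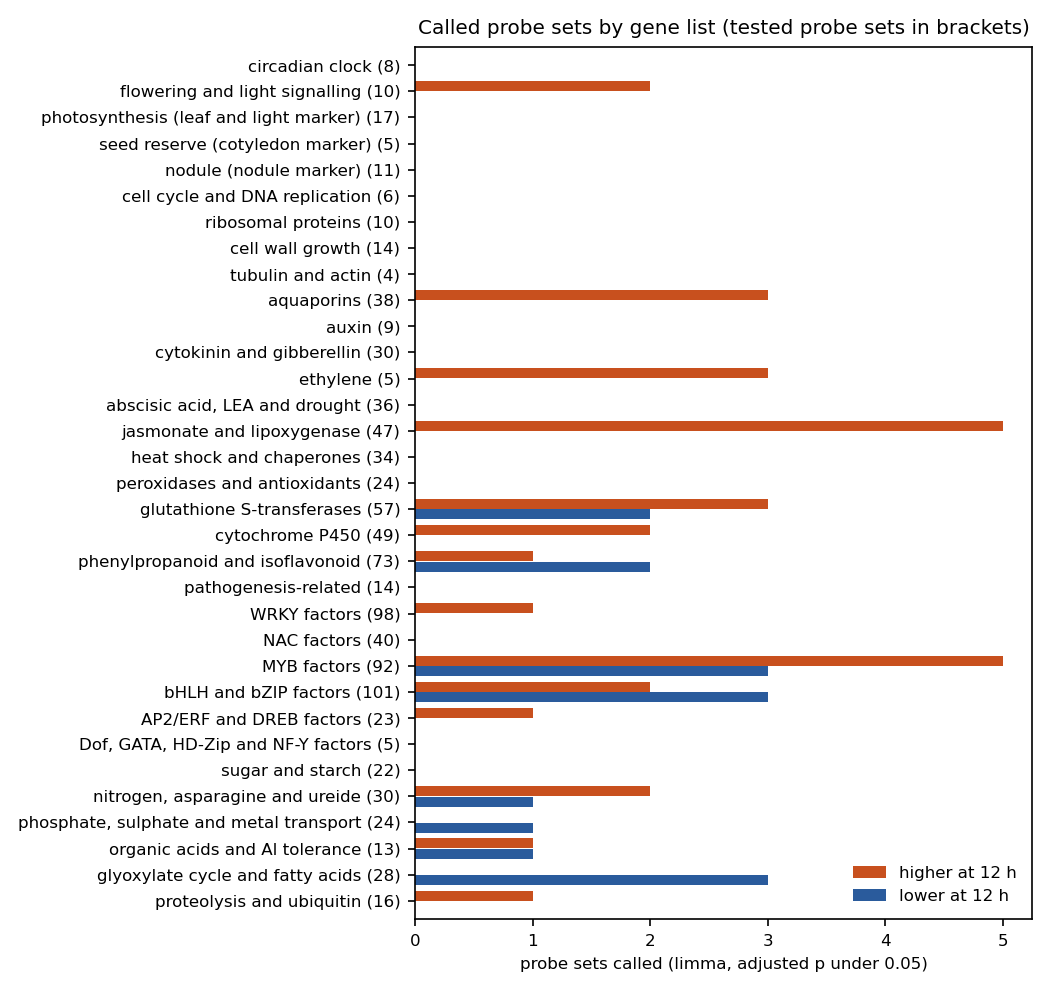
Number of called probe sets (horizontal axis) in each gene list with a tested probe set (vertical axis, tested probe sets in brackets), higher at 12 h above and lower at 12 h below. Jasmonate and lipoxygenase and MYB factors had the most higher calls, 5 each, and 17 lists had none in either direction.

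Of 10 array measures other than single genes, the actin control reached the smallest p that exact permutation could give. None had an adjusted p under 0.05, which a single measure alone could not have reached here. The actin control, as 3′ minus 5′ level, was 7.44 to 7.77 at 12 h and 7.67 to 8.00 at 48 h, a difference of -0.216 (two-sided exact permutation p = 0.005, adjusted p = 0.05 over 10 checks). With 400 arrangements no smaller p could be had. Within each genotype every 12 h array of this control lay below every 48 h array. The second actin control had a difference of opposite sign, 0.273 (exact permutation p = 0.055, adjusted p = 0.183). The mean of the 11 nodule marker probe sets was 6.65 to 7.12 at 12 h and 6.74 to 7.34 at 48 h, a difference of -0.192 (exact permutation p = 0.02, adjusted p = 0.1), with 0 single calls by limma. Of the 18 nodule probe sets on the array 11 passed the filter, and those of the nodulins N-22, N-23, N-26B, N-44 and N-70 did not exceed background. Others were bright, such as NOD33 with 10.7 to 12.9 at 12 h and 8.91 to 12.3 at 48 h. One UR2 probe set had 11.5 to 12.2 at 12 h and 11.9 to 13.4 at 48 h. Differences of the 11 ran from -1.08 to 0.71, and 5 were positive, so the list mean does not describe its members. The part of these measures in the gene results was not tested. In whole root tips, fewer cells of a type and less RNA per cell cannot be told apart.

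Both genotypes were then taken alone, to see whether the difference holds in each. All 1025 calls had the same sign in PI 416937 and Young, against 23826 of all 34097 tested probe sets, as calls on a mean of both favour. In PI 416937 alone limma called 4 probe sets (0.0117%), all 4 higher, with 3980 at an unadjusted p under 0.05. With the replicate numbers as a block 0 were called there, and the labels do not say whether the numbers pair arrays. Without PI 416937 12 h replicates 1, 2 or 3 the count was 2, 9 or 16, and without 48 h replicate 3 it was 1. In Young alone 20 were called (0.0587%), 13 higher and 7 lower, with 4328 at an unadjusted p under 0.05. Without Young 48 h replicate 3 this count was 0, without Young 48 h replicate 2 or 12 h replicate 1 it was 4, and without Young 12 h replicate 3 it was 58. LOC100305349, singled out after its values were seen, was the single probe set called in both. It read 6.62, 6.83 and 6.56 in PI 416937 and 5.86, 5.63 and 5.66 in Young at 12 h, and 4.90, 4.69 and 4.99 in PI 416937 and 5.01, 4.80 and 4.67 in Young at 48 h. Its 12 h arrays were above all its 48 h arrays in both genotypes, by 1.81 in PI 416937 (adjusted p = 0.00166) and 0.89 in Young (adjusted p = 0.0495).

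A difference between the genotypes in the 12 h minus 48 h value was called by limma in 0 of 34097 probe sets (0%), while 724 had an unadjusted p under 0.05. The lowest adjusted p was 0.9998. The interaction count was 3 without PI 416937 12 h replicate 3, 2 without Young 48 h replicate 2 and 1 without PI 416937 48 h replicate 2. For the LOC100305349 probe set the unadjusted interaction p was 0.000358.

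The roots given 10 µM Al provide the same interval on other arrays, with 3 arrays at 12 h and 3 at 48 h per genotype. There limma called 280 probe sets (0.821%), 162 higher at 12 h and 118 lower, with 4863 at an unadjusted p under 0.05. With the replicate number as a block it was 0, so the Al calls below hold only without that block. The count also rests on single arrays. Without single Al-treated PI 416937 arrays it was 27 and 156 (48 h replicates 1 and 2) and 173, 41 and 108 (12 h replicates 1, 2 and 3). It was 71 and 72 without the Al-treated Young 48 h replicates 2 and 3, and 1117 without the Al-treated Young 12 h replicate 1. Of the 1025 probe sets called in untreated roots, 960 (93.7%) had the same sign with Al, against 22257 of all 34097 tested (65.3%). The 447 higher calls had a median difference of 0.98 untreated and 0.72 with Al, and the 578 lower calls -0.57 untreated and -0.31 with Al. Both treatments called 71 probe sets, 6.93% of the untreated calls and 25.4% of the Al calls, and all 71 had the same sign.

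Of the 56 named called probe sets, 54 had the same sign with Al. AS2 differed there by 3.53 (adjusted p = 0.00434, without the block) and read 11.02 to 11.96 at 12 h and 7.16 to 9.18 at 48 h. LOX7 differed by 2.01 (adjusted p = 0.0254) and LOX9 by 3.43 (adjusted p = 0.0154) with Al, also without the block. These 3 genes are examples of those with the same direction in both treatments. SGR1 had a difference of 0.07 and GS-2 of -0.40 with Al (adjusted p = 0.972 and 0.689), against 1.78 and -2.12 in untreated roots. Whether untreated and Al-treated roots differ in these values was not tested.

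Untreated roots of 2 h and 72 h, 4 and 6 arrays that are also separate, lie outside the interval on either side. The mean of 2 h minus the mean of 72 h had the same sign as 12 h minus 48 h in 427 of the 447 higher calls (95.5%) and in 509 of the 578 lower calls (88.1%), against 24513 of all 34097 tested (71.9%). The median of 2 h minus 72 h was 1.08 for the higher and -0.60 for the lower calls. These are means without a test. Among the named called probe sets 50 of 56 had the same sign.

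Single genes took different courses through the 4 times. AS2 was 10.96 to 12.76 at 2 h, 11.36 to 12.56 at 12 h, 8.20 to 11.12 at 48 h and 7.08 to 8.79 at 72 h. LOX7 was 11.57 to 13.07 at 2 h, 11.34 to 13.39 at 12 h, 8.74 to 11.80 at 48 h and 7.47 to 9.85 at 72 h. Both were thus high at the early times and low at the late times. BZIP132 was 4.75 to 6.07 at 2 h, 5.81 to 6.75 at 12 h, 4.76 to 5.21 at 48 h and 4.70 to 4.85 at 72 h, and so was highest at 12 h. GS-2 was 6.45 to 8.81 at 2 h, 5.97 to 7.90 at 12 h, 8.31 to 9.57 at 48 h and 7.34 to 9.44 at 72 h. CHR5 was 14.16 to 14.74 at 2 h, 13.33 to 14.16 at 12 h, 14.31 to 14.80 at 48 h and 12.81 to 14.25 at 72 h, with neither early nor late times alike. CPX was 10.36 to 11.60 at 2 h, 9.98 to 11.28 at 12 h, 10.63 to 12.31 at 48 h and 12.32 to 13.34 at 72 h, highest at the last time.

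**Figure D5:**
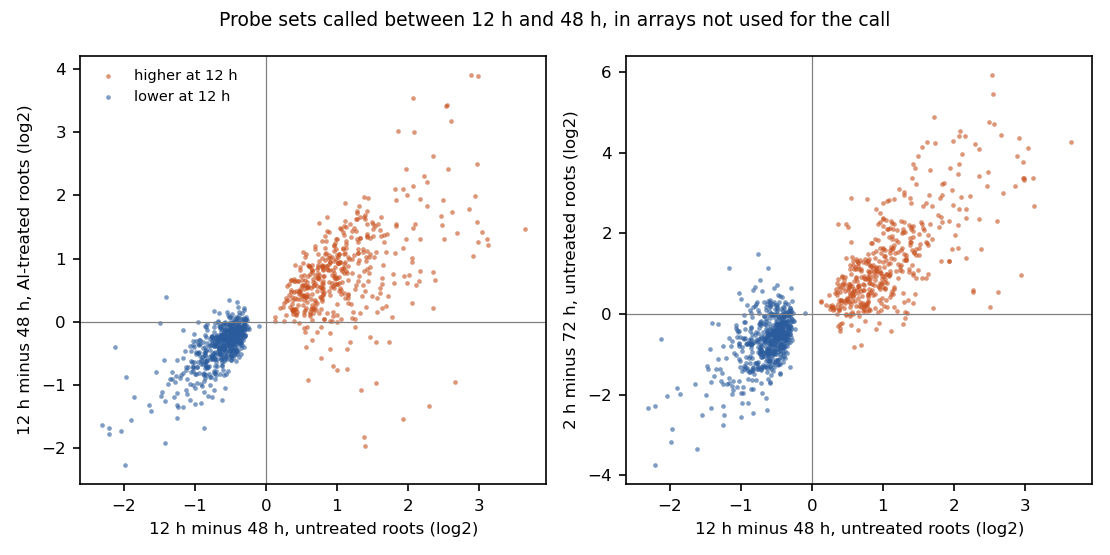
The 1025 called probe sets, with their untreated 12 h minus 48 h difference (log2) on both horizontal axes. The vertical axes give the same difference in Al-treated roots (left) and the untreated 2 h minus 72 h difference (right), both from other arrays, and points in the upper right and lower left have the same sign in both: 960 with Al.

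Named calls varied in how far they rest on single arrays. Of the 56, 16 were called without each of the 12 arrays in turn, among them LOX7, CYP76O2, BZIP132, GH, WRKY32, GS-2, SS, MYB29, CHR5, OAS-TL1 and urease. BZIP121 lost the call in all 12 of those fits and ERF5 in 11. LOX9, SGR1, PIP2-8, 4CL1, IFS1, PAP3, BZIP58 and LOC100792416 lost it in 10, SGR2, FAD2-3, PIP2-9 and SUBI-1 in 9, and AS2, GSTU62, CPX and CRY1c in 8. None of the 56 changed direction. With the replicate block 27 of the 56 calls were lost, among them those of LOC100527907, LOC100527270, LOC100527308, CPX, GSTa, GSTU17, JAZ1, ERF5, FAD2-3, PEPC16 and PAP3. Without Young 48 h replicate 3, 38 of the 56 calls were lost, and without PI 416937 48 h replicate 1, 34.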

How the data were processed

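Total RNA of 44 root samples was labelled and hybridised to Affymetrix soybean arrays. The deposited table holds 1 linear intensity per probe set and array, already on a common scale, with array medians of 6.56 to 7.52. The authors' steps for background, normalisation and probe set summary are not given in the sources used here, and these steps could change dim genes most. From the deposited intensities, log2(intensity + 16) was computed. The mean of 4 groups was fitted to the 12 arrays with limma 3.58.1 in R 4.3.3 (lmFit, contrasts, eBayes with a trend), with Benjamini-Hochberg adjustment over 34097 probe sets, and the Al-treated arrays were fitted likewise. Values after ± are standard errors of the contrast. On simulated data for the mean contrast over 34097 probe sets, 67 of 100 differences of 1 log2 unit and 93 of 100 of 2 units were called, with 8 of 33897 unchanged probe sets. The changed probe sets were drawn from brighter ones only, and simulated errors were normal and independent between arrays. These rates therefore need not hold for dim genes, or for real arrays that vary together. Gene names come from the platform annotation, and 5784 of 5800 genes matched RefSeq. It gives no description, so 35 lists were matched on symbols and synonyms. Members, lists and the naming rule were chosen with earlier results of these data known. The rule took, among called genes, the 12 highest and 12 lowest differences with a symbol, the 3 highest and 3 lowest others, up to 4 per list, all clock genes, and 2 unannotated probe sets per direction. A gene with several probe sets is represented by that with the smallest p. Probe sets whose name ends in _s_at, _a_at or _x_at can detect related genes. Single array measures were tested by exact permutation of time within genotype. Deviations of arrays with the same number correlated at 0.195, 0.23 and 0.101 in PI 416937 and at 0.164, -0.12 and 0.422 in Young. An unlike pair in PI 416937, 12 h replicate 3 with 48 h replicate 1, reached 0.1635. Unlike pairs in Young ran from -0.421 (12 h replicate 3 with 48 h replicate 1) to 0.211 (12 h replicate 2 with 48 h replicate 1). These few values do not settle whether the numbers pair the arrays, and the main fit does not use the numbers. No coordinates are given, since the files name no genome build.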

Additional observations from a re-analysis of the deposited data

How the results depend on the processing

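Under the alternatives that kept all 12 arrays, the count of 1025 calls for the mean of both genotypes was 995 with a pseudocount of 64, 1062 with 1, 898 without the filter, 1111 with background exceeded in all 4 groups, 1081 after quantile normalisation, 1290 without a trend, 1412 in a model of genotype and time and 1475 with all 44 arrays. With the replicate number within genotype as a block it was 792, of which 507 were shared with the 1025, and 27 of the 56 named calls were lost. With the number as a block across genotypes, chosen after seeing the data, it was 2133, and the cause was not tested. Without both 48 h arrays numbered 3, also chosen after seeing the data, it was 111 and 49 of the 56 named calls were lost; fewer samples enter that fit. With all 44 arrays, which share 1 spread per probe set, PI 416937 had 28 calls, Young 222 and Al-treated roots 2338. With the replicate block PI 416937 had 0, Young 4 and Al-treated roots 0, and the interaction had 0. Leaving out single arrays gave 247 to 971 calls for the mean, 1 to 16 in PI 416937, 0 to 58 in Young, 0 to 3 for the interaction and 27 to 1117 in Al-treated roots. Where an arm then holds 2 arrays, the spread is pooled over groups. No named difference changed sign among the called genes. Signal over background limits what dim genes can show. Among others, CRY2B, PIP2-8, BZIP132, GSTU62, CYP76O2, ACS1, LOC100305349, SGR1, SGR2, CRY1c, LOC100527308 and LOX9 had 48 h arrays within 1 log2 unit of 4.41, so their differences are compressed.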

Other observations

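Other genes outside the naming rule, chosen after their values were seen, had large differences with a wide spread between arrays and did not pass. The nitrate transporter NRT2 had a mean of 7.20 at 12 h and 5.11 at 48 h, a difference of 2.09 ± 0.52 (SE, adjusted p = 0.0608). The cell wall protein PRP2, among the brightest genes on these arrays, averaged 15.20 at 12 h and 14.00 at 48 h, with a difference of 1.20 ± 0.38 (SE, adjusted p = 0.116). The cell wall enzyme XET1 averaged 13.53 at 12 h and 11.98 at 48 h (difference 1.55 ± 0.62, SE, adjusted p = 0.2). The gibberellin-related GASA13 and GASA14 had differences of -1.03 ± 0.26 and -1.07 ± 0.29 (SE, adjusted p = 0.0658 and 0.0744). The nodulin ENOD55-2 had a mean of 5.35 at 12 h and 6.43 at 48 h (difference -1.08 ± 0.27, SE, adjusted p = 0.0589). Uricase UR2, an enzyme of ureide synthesis, had differences of -0.66 ± 0.16 and -0.63 ± 0.16 (SE, adjusted p = 0.0604 and 0.066) in its 2 probe sets.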
